A study of Mus musculus with 3 samples.

Results

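Intergenic peaks of Ad4BP/SF-1 that lay 1 to 50 kb from a transcription start site (TSS) were taken from 2 lists of chromatin immunoprecipitation-sequencing (ChIP-seq) peaks, 1 for vehicle-treated and 1 for cAMP-treated mouse Leydig cells. A peak belonged here when its centre was in no protein-coding gene body and more than 1 kb and at most 50 kb from the nearest protein-coding TSS of GENCODE M21 on mm10. By this rule 1261 of 5721 vehicle peaks and 878 of 4025 cAMP peaks were near intergenic peaks, and the lists were kept apart. These were 22% of the vehicle list (95% exact Clopper-Pearson interval 21% to 23.1%) and 21.8% of the cAMP list (20.5% to 23.1%). Such intervals, here and below, cover counting error only.

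The cells of both groups were Leydig cells, the androgen-producing cells between the tubules of the testis, from 9-week-old male ICR mice. They were isolated on a Percoll gradient, cultured on collagen-coated dishes and given vehicle or cAMP, the second messenger of luteinizing hormone in these cells, at a dose and for a time not given in the sources used here. The cells came from pooled animals, and each group had 1 library, so that a difference between the groups could not be set against replicate error. Each peak carries a score from the peak caller MACS, the negative log10 of its p-value multiplied by 10. The score rises with depth, which is unknown, and no peak of either list scored below 50. An input DNA sample of the series was not analysed here.

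Ad4BP/SF-1, the product of *Nr5a1*, is a nuclear receptor that binds DNA as a monomer and is made in steroidogenic cells of the gonads and the adrenal cortex. It binds an 8-base sequence named Ad4, for which the spellings CCAAGGCC, CCAAGGTC, TCAAGGCC and TCAAGGTC were searched on both strands. Intergenic sequence near a gene often holds enhancers, which act on a gene from a distance and from either side, and the gene with the nearest TSS need not be the gene that a bound site controls.

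The sequences below were read from the GRCm38 reference of RefSeq, 5′ to 3′ on the strand of the Ad4 copy nearest to the peak centre, with each Ad4 copy in capitals. The first set shows the 4 highest-scoring near intergenic peaks of the vehicle list, named by the gene with the nearest TSS.
Nrsn2, chr2:152363660-152363707, plus strand: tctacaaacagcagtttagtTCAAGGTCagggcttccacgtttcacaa
Inpp5a, chr7:139364257-139364304, plus strand: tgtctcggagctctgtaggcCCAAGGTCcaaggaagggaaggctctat
Jund, chr8:70696606-70696653, plus strand: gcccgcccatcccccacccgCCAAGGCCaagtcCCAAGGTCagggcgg
Slc25a30, chr14:75789439-75789486, minus strand: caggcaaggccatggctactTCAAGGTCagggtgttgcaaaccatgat

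The second set shows peaks near genes of Leydig cell function that are described further on, all from the vehicle list.
Nr5a1, chr2:38718851-38718898, plus strand: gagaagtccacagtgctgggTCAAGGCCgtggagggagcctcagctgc
Fdps, chr3:89108326-89108373, minus strand: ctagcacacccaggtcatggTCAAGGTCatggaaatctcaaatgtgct
Msmo1, chr8:64717886-64717933, plus strand: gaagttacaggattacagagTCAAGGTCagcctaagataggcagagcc
Hsd17b3, chr13:64095276-64095323, minus strand: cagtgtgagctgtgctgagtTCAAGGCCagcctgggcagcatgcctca

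The third set shows the highest-scoring peaks with an Ad4 copy that were called in 1 list alone. The first of them, near *1700001O22Rik*, and the second are from the vehicle list, and the last 2 are from the cAMP list.
1700001O22Rik, chr2:30772311-30772358, plus strand: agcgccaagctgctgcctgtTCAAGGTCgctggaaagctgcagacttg
Gadd45b, chr10:80940493-80940540, plus strand: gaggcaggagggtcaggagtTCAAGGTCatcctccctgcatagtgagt
Rplp1, chr9:61901848-61901895, plus strand: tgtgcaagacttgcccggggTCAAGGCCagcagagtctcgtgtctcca
Gprc5c, chr11:114837078-114837125, plus strand: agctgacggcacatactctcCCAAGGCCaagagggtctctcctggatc

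To see how densely the peaks lay, the genome was divided by the same rule, at points every 100 bp. Sequence that met the rule came to 516.6 Mb, or 19.5% of the known genome. It held 2.44 vehicle peaks and 1.70 cAMP peaks per Mb, which was 1.13 and 1.12 times the average of each list. Promoter sequence, within 1 kb of a TSS, held 9.51 and 5.42 peaks per Mb, introns held 3.07 and 2.13, and intergenic sequence more than 50 kb from a TSS (remote intergenic) held 0.707 and 0.615. The near intergenic peaks were thus sparser than intronic peaks and denser than remote ones in both lists. Their median width was 517 bp for vehicle and 481.5 bp for cAMP.

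**Figure D1:**
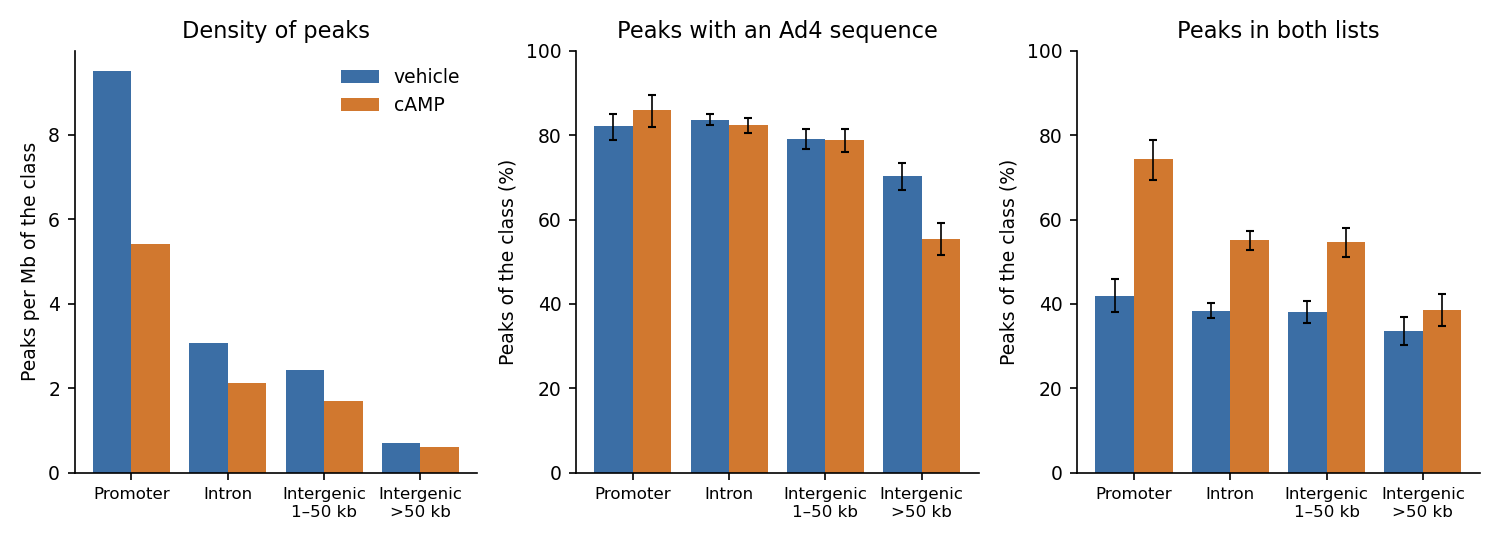
Peaks of the vehicle (blue) and cAMP (orange) lists by place in the genome, as peaks per Mb of each class (left), the percent of peaks with at least 1 Ad4 sequence (middle) and the percent that overlapped a peak of the other list (right). Bars are single libraries and error bars are 95% Clopper-Pearson intervals. The near intergenic bars stand above the remote intergenic ones in each panel.

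Of the near intergenic peaks, 910 of the vehicle list (72.2%, 69.6% to 74.6%) and 651 of the cAMP list (74.1%, 71.1% to 77.0%) lay upstream of the nearest TSS. The other 351 (27.8%) and 227 (25.9%) lay downstream of it. Most of the near intergenic genome is upstream too, since a downstream point must lie past the end of the gene: 70.4% of its points were upstream. Per Mb, upstream sequence held 1.09 times as many vehicle peaks as downstream sequence (2.50 against 2.30) and 1.21 times as many cAMP peaks (1.79 against 1.49). The vehicle interval holds the share of the genome, and the cAMP interval lies above it. With distances to outermost gene 5′ ends instead, both intervals lay above the genome's 74.0%, with 77.2% for vehicle (74.8% to 79.5%) and 78.1% for cAMP (75.2% to 80.8%). By distance to the nearest TSS, the upstream excess per Mb was not seen beyond 10 kb. At 10 to 20 kb, upstream and downstream sequence held 2.57 and 2.81 vehicle peaks and 1.71 and 1.82 cAMP peaks per Mb. At 20 to 50 kb the values were 1.89 and 1.87 for vehicle and 1.31 and 1.32 for cAMP. The upstream shares above do not separate side from distance.

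The peaks thinned out with distance. The median distance to the nearest TSS was 13905 bp for vehicle and 13546 bp for cAMP. Vehicle peaks fell from 3.63 per Mb at 1 to 2 kb to 3.32 at 2 to 5 kb, 2.92 at 5 to 10 kb, 2.64 at 10 to 20 kb and 1.88 at 20 to 50 kb. The cAMP peaks fell in the same order, from 2.57 to 2.48, 2.05, 1.75 and 1.31 per Mb. Downstream of a TSS the order was not the same in either list. Over the same distances the vehicle list held 2.45, 2.94, 2.86, 2.81 and 1.87 downstream peaks per Mb. The cAMP list held 1.63, 1.71, 1.43, 1.82 and 1.32. The downstream values at 1 to 2 kb rest on 3 vehicle and 2 cAMP peaks. Every downstream peak lay past the annotated end of its gene, at a median of 7069 bp past it for vehicle and 8122 bp for cAMP, and 146 and 87 peaks lay within 5 kb of that end.

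**Figure D2:**
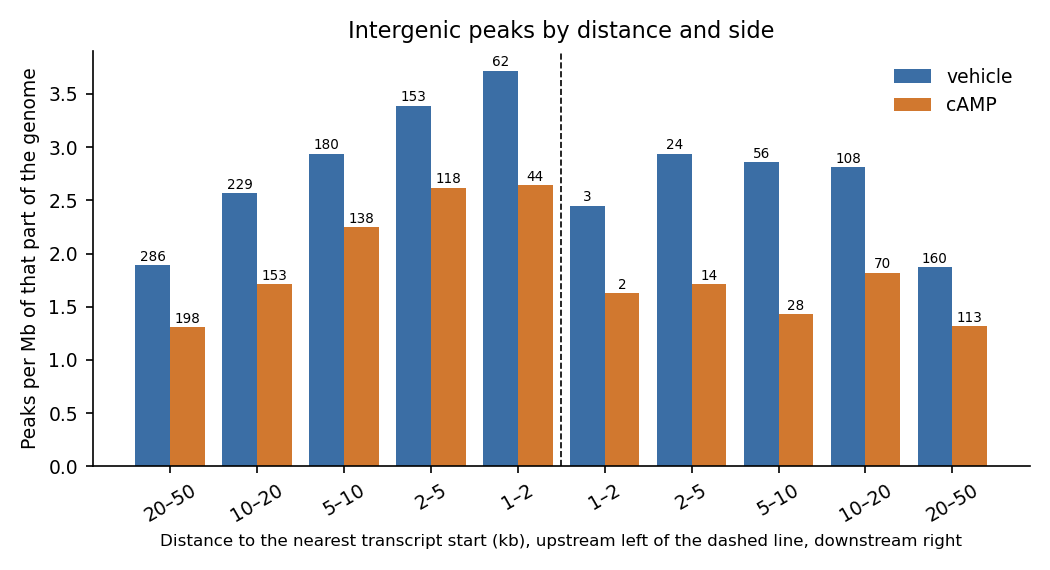
Near intergenic peaks per Mb of sequence at the same distance and side of the nearest transcript start (kb), for the vehicle (blue) and cAMP (orange) lists, with the number of peaks above each bar. Upstream bars fall with distance in both lists, from 3.72 to 1.89 per Mb for vehicle and from 2.64 to 1.31 for cAMP.

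The peaks just inside the lower limit were 1018 bp (vehicle) and 1020 bp (cAMP) from a TSS, and the intergenic peaks just outside it were 977 and 989 bp away. At the upper limit the last peaks inside were 49909 and 49602 bp away and the first outside were 50125 and 50025 bp away. The median score was 71.79 in the vehicle list, with quartiles of 58.34 and 103.26, and 69.34 in the cAMP list, with quartiles of 57.91 and 102.42. A score of at least 100 was reached by 26.5% of the vehicle peaks (24.1% to 29%), against 26.6% of that whole list, and by 26.7% of the cAMP peaks (23.8% to 29.7%), against 23.0% of that whole list. The near intergenic share differed from the remote one by 10.2 percentage points for cAMP (95% Newcombe interval 6.03 to 14.2) and by 3.72 points for vehicle (-0.184 to 7.51). Near intergenic minus promoter, the differences were -6.25 points for vehicle (-10.7 to -1.87) and 0.366 points for cAMP (-5.24 to 5.65).

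The Ad4 sequence was found in most near intergenic peaks. At least 1 copy was in 998 vehicle peaks (79.1%, 76.8% to 81.4%), against 80.4% of the whole list, and in 692 cAMP peaks (78.8%, 76.0% to 81.5%), against 77.1%. Because wider peaks have more room for a copy, the central 400 bp were also searched. There, 77.7% of the vehicle and 77.4% of the cAMP peaks held a copy, whereas 7.93% of all 1291355 windows of 400 bp in the near intergenic genome did. The peaks thus held a copy 9.80 and 9.77 times as often as windows of the same class and length. In their central 300 bp, 76.6% and 76.1% of the peaks held a copy, and of 32851 RefSeq promoters of 300 bases 5.73% did.

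The share with Ad4 was higher in near than in remote intergenic peaks. It was 70.3% in remote vehicle peaks, 8.88 points below the near ones (4.97 to 12.9), and 55.4% in remote cAMP peaks, 23.4 points below (18.8 to 28.0). Windows of the remote class also held Ad4 less often, in 5.68%, so that against windows of their own class the central 400 bp of remote peaks held it 12.2 times as often for vehicle and 9.59 times for cAMP, beside 9.80 and 9.77 for the near ones. Intronic peaks held Ad4 more often, and the difference, near intergenic minus intronic, was -4.53 points for vehicle (-7.21 to -1.95) and -3.49 points for cAMP (-6.75 to -0.371). Among the near intergenic peaks the share also fell with distance from the TSS, from 87.7% of the 65 vehicle peaks at 1 to 2 kb (77.2% to 94.5%) to 75.3% of the 446 at 20 to 50 kb (71.1% to 79.3%). For cAMP it fell from 84.8% of 46 peaks (71.1% to 93.7%) to 75.6% of 311 (70.4% to 80.2%). The intervals of the nearest and farthest bins overlap in both lists.

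The spelling TCAAGGTC was the commonest in the peaks. It made up 573 of the 1319 copies in vehicle peaks (43.4%) and 421 of the 923 copies in cAMP peaks (45.6%), but 22.9% of the copies in windows of the near intergenic genome. There, TCAAGGCC was the commonest with 39.4%, and it made up 27.7% and 28.3% of the copies in the peaks. CCAAGGTC made up 17.3% and 14.8%, against 18.4% in the windows, and CCAAGGCC 11.5% and 11.3%, against 19.2%. The commonest spelling did not have the highest score. Among vehicle peaks with a single copy the median score was 72.81 for TCAAGGTC (362 peaks), 71.79 for TCAAGGCC (194), 73.91 for CCAAGGTC (110) and 74.78 for CCAAGGCC (66). In the cAMP list these medians were 71.88 (254 peaks), 75.17 (135), 69.92 (74) and 67.67 (41).

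The copies lay close to the peak centres. Their median distance from the centre was 48.5 bp for vehicle and 44.5 bp for cAMP, and 79.9% and 81.8% of the copies were within 100 bp. The base after the 8, which is at position 9 when the first base of Ad4 is position 1, was A in 79.2% of the vehicle and 82.4% of the cAMP copies, against 52.3% of the copies in windows. The base 2 before Ad4 was G in 57.8% and 62.9%, against 37.4%. Both bases were thus more frequent beside the copies in peaks than beside the copies in windows.

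More than 1 copy was found in 266 vehicle peaks (21.1%, 18.9% to 23.5%) and in 188 cAMP peaks (21.4%, 18.7% to 24.3%), against 20.8% and 19.4% of the whole lists. Within the central 400 bp, 17.8% and 18.2% of the peaks held at least 2 copies, and 0.435% of the windows did. Neighbouring copies up to 60 bp apart were mostly on the same strand, with 96 pairs against 25 on opposite strands in the vehicle list and 76 against 22 in the cAMP list. Windows of the near intergenic genome held 1529 such pairs on the same strand and 689 on opposite strands. Of the latter, 277 were 4 bp apart, a spacing not found in the central 400 bp of the peaks. The counts therefore do not show a stronger preference for the same strand in peaks than in windows. Among the same-strand pairs in the peaks, 1 spacing stood out. In the vehicle list 26 pairs on the same strand began exactly 29 bp apart, and the next commonest spacing, 6 bp, was found 13 times. In the cAMP list the 29-bp spacing was found 27 times, in 26 peaks, and the 6-bp spacing 12 times. Many of the peaks with 29-bp pairs are the same regions in both lists, so the lists do not repeat this count independently. Every other spacing had at most 5 pairs.

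Windows of the near intergenic genome also held 29-bp pairs more often than pairs at 6 bp, 276 against 155 in all. Set against these windows, the 29-bp pairs were 96.5 times as frequent per vehicle peak and 144 times as frequent per cAMP peak. For the 6-bp pairs these ratios were 85.9 and 114, for same-strand pairs at all other spacings up to 60 bp 53.2 and 49.6, and for pairs on opposite strands 37.2 and 47.0. Without the 277 opposite-strand window pairs at 4 bp, the last ratios would be higher. Their order beside those of the other same-strand spacings thus depends on that spacing. The 29-bp and 6-bp spacings stood out by their number of pairs and not by these ratios, since single spacings with few pairs had higher ones. For example, the same-strand spacing of 13 bp was found 3.17 times per 1000 vehicle peaks and 3.42 times per 1000 cAMP peaks, against 0.0147 per 1000 windows, while that of 29 bp was found 20.6 and 30.8 times, against 0.214. The counts in the peaks are small, and the ratios have no replicate error. The 29-bp pairs lay in peaks with scores from 51.19 to 257.31 with a median of 80.78 for vehicle and from 50.5 to 264.77 with a median of 70.48 for cAMP. Of the 26 peaks of each list, 16 overlapped a peak of the other list, where 38.1% of all near intergenic vehicle peaks and 54.6% of the cAMP ones did.

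The 4 highest-scoring vehicle peaks with a 29-bp pair are printed so that the bases around the copies can be compared.
Gm6793, chr8:112061681-112061749, minus strand: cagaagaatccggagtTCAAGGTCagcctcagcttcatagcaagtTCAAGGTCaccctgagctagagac
Notch4, chr17:34562753-34562821, plus strand: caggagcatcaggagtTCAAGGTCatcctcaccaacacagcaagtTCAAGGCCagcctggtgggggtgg
Lgi4, chr7:31057948-31058016, plus strand: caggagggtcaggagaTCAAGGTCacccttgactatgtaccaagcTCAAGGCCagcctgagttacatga
Aldh1b1, chr4:45769328-45769396, plus strand: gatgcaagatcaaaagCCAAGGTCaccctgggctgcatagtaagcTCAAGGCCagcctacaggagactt

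In the 6-bp pairs the copies share 2 bases, as the 3 highest-scoring vehicle peaks of that kind show.
Arf2, chr11:104024756-104024801, minus strand: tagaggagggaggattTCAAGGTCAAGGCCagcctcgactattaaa
Ppm1m, chr9:106191556-106191601, minus strand: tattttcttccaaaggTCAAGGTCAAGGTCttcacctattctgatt
Aldh1a1, chr19:20451386-20451431, minus strand: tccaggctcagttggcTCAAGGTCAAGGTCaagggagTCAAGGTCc

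**Figure D3:**
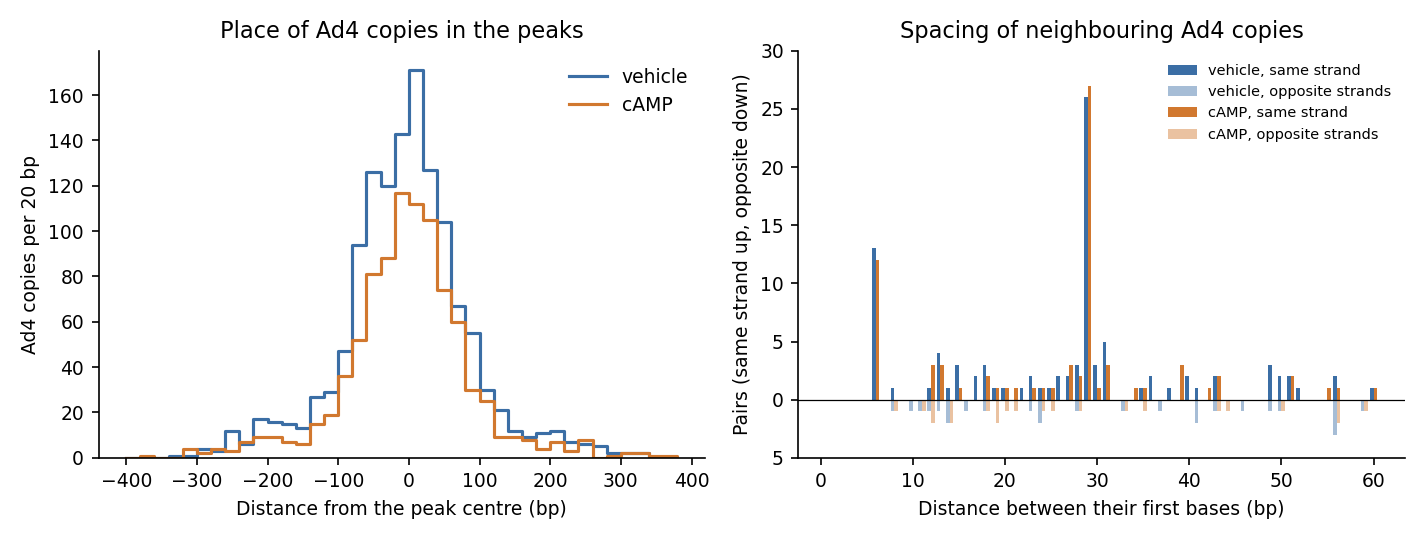
Left, the number of Ad4 copies per 20 bp by distance from the peak centre (bp). Right, the number of pairs of neighbouring Ad4 copies by the distance between their first bases (bp), on the same strand (up, full colour) and on opposite strands (down, pale), for vehicle (blue) and cAMP (orange) near intergenic peaks. The copies gather at the centre, and the same-strand pairs stand out at 29 bp, with 26 and 27 pairs, and at 6 bp, with 13 and 12.

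Repeated sequence was counted beside these pairs. Soft-masked bases, which the reference marks as repeats, covered the centre of 21.6% of the vehicle and 23.3% of the cAMP peaks, against 40.7% of the near intergenic genome and 21.1% and 21.2% of all peaks. Of the Ad4 copies in the central 400 bp, 40.1% and 45.1% were soft-masked, against 46.1% of the copies in windows. In 14 of the 26 vehicle pairs and 16 of the 27 cAMP pairs at 29 bp, both copies were soft-masked. Reads with several positions in the genome were not used, so peaks in repeats of near-identical sequence could not be called. Which repeat families are involved was not looked up.

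Peaks centred on a repeat held Ad4 more often than the others. In the vehicle list 89.4% of 273 did, against 76.3% of 988, a difference of 13.1 points (8.14 to 17.2). Of the 205 such cAMP peaks 89.8% did, against 75.5% of 673, a difference of 14.3 points (8.47 to 19.1). Their median scores were 71.31 inside and 72.04 outside repeats for vehicle, and 72.5 and 68.77 for cAMP. The A at position 9 followed 95.3% of the soft-masked vehicle copies and 69.0% of the others, and in windows 64.9% and 41.5%. This share of the vehicle copies was thus above that in windows both inside and outside repeats.

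Other short sequences were searched in the same central 400 bp, on both strands. The AP-1 sequence TGANTCA was in 258 vehicle peaks (20.5%, 18.3% to 22.8%) and 201 cAMP peaks (22.9%, 20.2% to 25.8%), against 11.6% of near intergenic windows. It was in 22.6% and 21.6% of remote intergenic peaks and in 17.0% and 20.6% of intronic peaks, and in fewer promoter peaks, 11.1% and 12.9%, where promoter windows held it in 9.68%. AP-1 factors, such as JUND and FOS, are bZIP proteins that are often found at enhancers. The ETS spellings CCGGAAG and CAGGAAG were in 20.5% and 19.5% of the near intergenic peaks, against 13.8% of windows, and the C/EBP spelling TTGCNNAA in 20.5% and 22.4%, against 17.1%. The GC box GGGCGG was in 8.41% and 6.04% of them, against 3.87% of windows, and in 40.9% and 33.1% of promoter peaks, against 20.8% of promoter windows. The ratios to windows were 2.17 and 1.56 for near intergenic and 1.97 and 1.60 for promoter peaks.

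The cAMP response element TGACGTCA was rare, with 6 vehicle peaks (0.476%, 0.175% to 1.03%) and 7 cAMP peaks (0.797%, 0.321% to 1.64%), against 0.238% of windows. The GATA spellings AGATAA and TGATAA were in 35.0% and 31.4% of the peaks and in 40% of windows, and CCAAT was in 40% and 41.9% and in 50.2% of windows. A sterol regulatory element, TCACNCCAC, was in 23 and 22 peaks (1.82% and 2.51%), against 1.08% of windows. AGAACA, a sequence bound by steroid receptors, was in 34.0% and 33.4% of the peaks and in 33.3% of windows. The RUNX spelling TGTGGTT was in 9.28% and 9.57%, the forkhead spelling TGTTTAC in 4.92% and 3.19%, and the E-box CACGTG in 6.19% and 5.13%, against 9.94%, 5.63% and 4.12% of windows. The peaks were richer in G and C than the windows, with medians of 48.5% and 48.0% against 42.8%, and the part of base composition in these shares was not tested.

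Peaks in both lists were next compared with peaks in 1 list. Of the near intergenic vehicle peaks 480 (38.1%, 35.4% to 40.8%) overlapped a cAMP peak by at least 1 bp, against 37.9% of the whole list. Of the cAMP peaks 479 (54.6%, 51.2% to 57.9%) overlapped a vehicle peak, against 53.8%. The lists together covered 1660 separate near intergenic regions. In the cAMP list the near intergenic share was 16 points above the remote one of 38.6% (11 to 20.9). The difference from promoter peaks, 74.3% of which overlapped, was -19.7 points (-25.2 to -13.9), and for vehicle it was -3.95 points (-8.70 to 0.749). The near intergenic share differed from the intronic share of 55.1% by -0.588 points, with an interval from -4.56 to 3.36. In the vehicle list the near intergenic share was 4.51 points above the remote share (0.182 to 8.76).

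Peaks of high score were mostly found in both lists. In the vehicle list the overlapping share was 17.8% of the 348 peaks that scored 50 to 60 (13.9% to 22.2%) and 82.4% of the 131 that scored 150 or more (74.8% to 88.5%). For cAMP it was 27.6% of 283 (22.4% to 33.2%) and 96.3% of 81 (89.6% to 99.2%). The share with Ad4 rose over the same range, from 72.4% (67.4% to 77.0%) to 90.1% (83.6% to 94.6%) for vehicle and from 65.4% (59.5% to 70.9%) to 90.1% (81.5% to 95.6%) for cAMP. A peak called in 1 list alone does not show binding in 1 condition alone, since reads below the threshold of the other list are not in it.

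**Figure D4:**
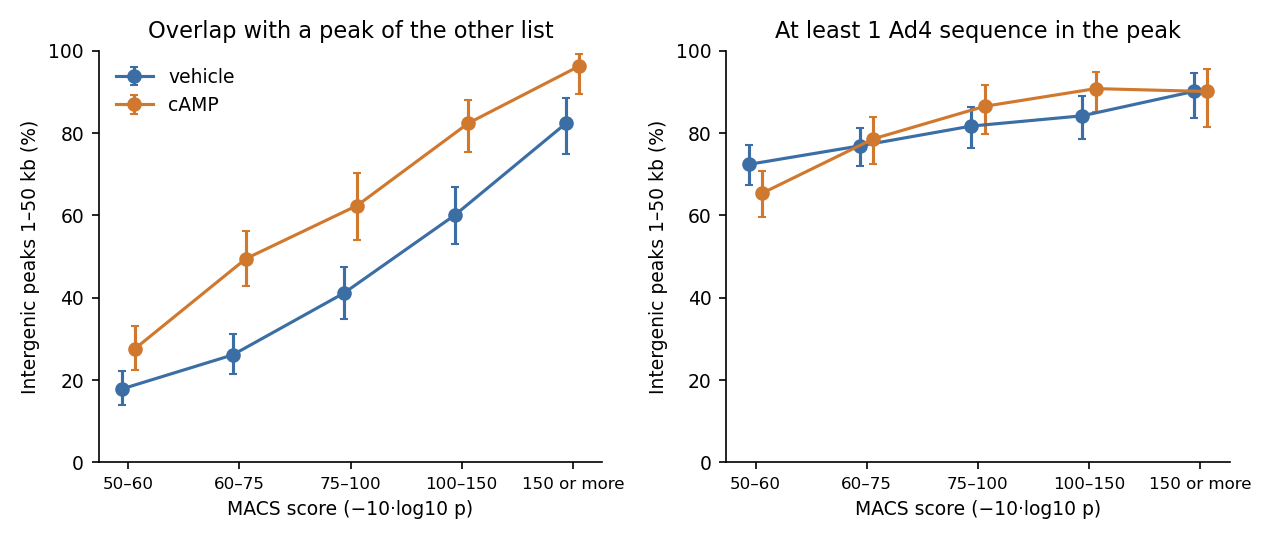
Percent of near intergenic peaks that overlapped a peak of the other list (left) and that held at least 1 Ad4 sequence (right), by MACS score, for the vehicle (blue) and cAMP (orange) lists. Points are single libraries and error bars are 95% Clopper-Pearson intervals. The overlap climbs from 17.8% to 82.4% for vehicle and from 27.6% to 96.3% for cAMP.

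Overlapping peaks also held more of some sequences. In their central 400 bp, Ad4 was in 84.8% of the overlapping and 73.4% of the other vehicle peaks, a difference of 11.4 points (6.84 to 15.8), and in 84.8% and 68.7% of the cAMP peaks, a difference of 16.1 points (10.5 to 21.6). AP-1 was in 25.8% and 17.2% of the vehicle peaks, a difference of 8.68 points (4.02 to 13.5), and in 26.1% and 19.0% of the cAMP peaks, a difference of 7.05 points (1.47 to 12.5). For GATA the differences, overlapping minus other, were -2.65 points (-7.97 to 2.80) and 2.95 points (-3.23 to 9.04). The overlapping peaks of both lists are largely the same regions, so these lists do not repeat each other independently.

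In the 480 overlapping vehicle peaks the median score was 96.12, and that of their cAMP partners was 86.21. The cAMP partner was itself a near intergenic peak in 479 cases, and the centres were a median of 47 bp apart. The vehicle score was the higher in 57.9% of the pairs, against 61.1% of the 2167 pairs over all classes. Scores of the pairs were related with a Spearman rho of 0.42 over 480 pairs, which share 2 libraries, and is given as a description.

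**Figure D5:**
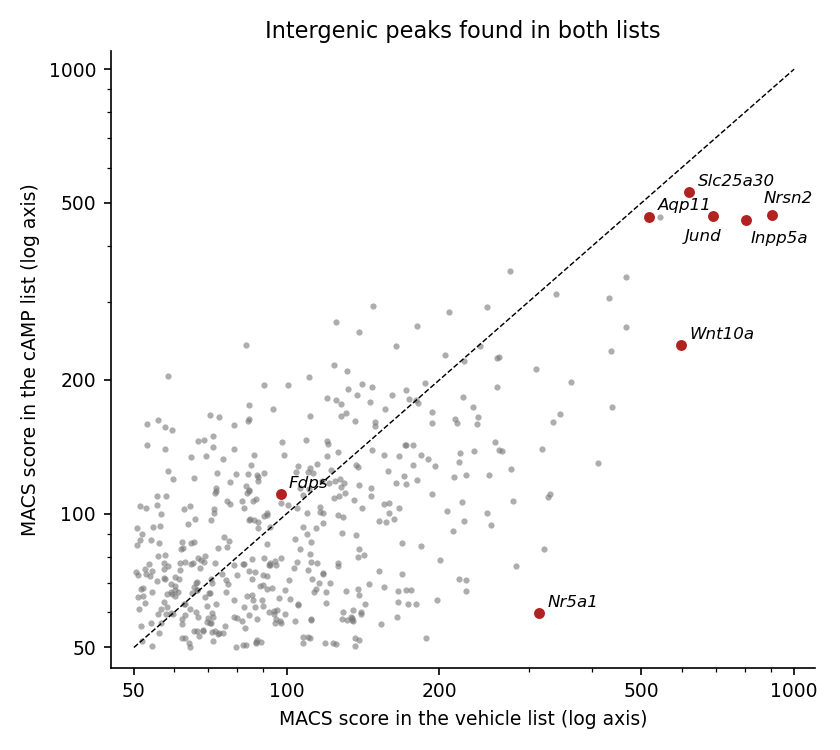
MACS score of each near intergenic vehicle peak that overlapped a cAMP peak (x axis) and of its cAMP partner (y axis), both on log axes, with the line of equal scores dashed. Each point is 1 pair of peaks and red points are named by the nearest gene. *Nrsn2*, *Inpp5a* and *Jund*, the first 3 near intergenic peaks for vehicle, are among the 8 highest near intergenic peaks of both lists, and *Nr5a1* is far below the line, with 314.86 for vehicle and 59.77 for cAMP.

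The highest-scoring near intergenic peak of the vehicle list was also the first of all 5721. It lay 12.9 kb downstream of the TSS of *Nrsn2*, a vesicle membrane protein of neurons, held 2 copies of TCAAGGTC, and scored 904.96 in the vehicle and 469.03 in the cAMP list. The second lay 25 kb upstream of *Inpp5a*, an inositol phosphatase, with 805.37 and 458.42. The third lay 2.34 kb upstream of *Jund*, a subunit of AP-1, with 693.34 and 467.59. The peak 2.52 kb upstream of *Slc25a30*, a carrier of the mitochondrial inner membrane, scored 621.43 in the vehicle list and led the near intergenic peaks of the cAMP list with 529.55.

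The next were near *Wnt10a*, a WNT ligand (598.65 and 239.79), *Ampd3*, an AMP deaminase (544.55 and 464.21), *Aqp11*, an aquaporin (518.41 and 466.02), and *Nacc2*, a nuclear BTB domain protein (467.03 and 340.22). All 8 held at least 1 Ad4 copy and were in both lists. The 8 highest near intergenic peaks of the cAMP list had 7 of these, without *Wnt10a* and with a peak 30.5 kb upstream of *Spink4*, a protease inhibitor (351.36 in the cAMP and 275.16 in the vehicle list). The peaks that led the near intergenic class were thus largely the same in both lists.

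Of the peaks in the vehicle list alone, the highest lay 29.3 kb downstream of the TSS of *1700001O22Rik* and scored 311.26. It was followed by peaks near *Gadd45b*, a stress-induced gene (259.97), *Serp2* (197.98), *Ceacam15* (196.21) and *Cipc*, a repressor of the circadian CLOCK protein (190.97). In the cAMP list alone, the highest lay 12.7 kb downstream of the TSS of *Rplp1*, which encodes a protein of the ribosomal stalk, and scored 304.85. The next were near *Gprc5c*, an orphan receptor (207.48), *Cfap54*, a protein of cilia and flagella (154.43), *Prkag3*, a subunit of AMP-activated kinase (140.56), and *Ivns1abp* (128.03). Of these 10 peaks, those near *Cipc* and *Cfap54* held no Ad4 copy. There is no replicate check on any of these peaks.

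The near intergenic peaks had 1113 nearest genes for vehicle and 806 for cAMP, which were 5.07% and 3.67% of 21938 protein-coding genes, and 488 genes were in both. Most of them had a single peak, 981 and 743. At least 3 peaks lay nearest to 14 genes in the vehicle list and to 7 in the cAMP list. *Wnt7b*, a WNT ligand, had 4 peaks in each list, and no gene had more.

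All 4 peaks of *Wnt7b* were upstream, 16.5 to 43.4 kb away in the vehicle list, with scores of 97.54 to 259.93, and each overlapped a cAMP peak. *Ccr7*, a chemokine receptor, had 3 peaks in both lists, 13.3 to 20.8 kb downstream, with scores of 146.86, 155.49 and 225.84 in the vehicle list and of 68.46, 114.21 and 121.96 in the cAMP list. *Hes1*, a repressor that answers Notch, had 3 cAMP peaks, of 66.28, 67.6 and 139.74, and the vehicle partners of the latter 2 scored 114.15 and 318.73. *Slc35e2* had 3 cAMP peaks with 78.92, 94.02 and 191.22, and *Slc25a30* had 3 vehicle peaks with 50.23, 85.64 and 621.43.

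Near intergenic peaks were then looked up for genes of Leydig cell function. For steroidogenesis, 1 of 15 genes was nearest to such a peak for vehicle and 0 for cAMP. The gene was *Hsd17b3*, whose enzyme makes testosterone from androstenedione, with a peak 6.07 kb upstream that scored 73.2. *Star*, *Cyp11a1* and *Cyp17a1*, which encode the cholesterol carrier and the first enzymes of the pathway, were nearest to none. These counts, and those of the lists that follow, are small, stand beside the 5.07% and 3.67% of all genes, and were not tested.

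For cholesterol synthesis, 4 of 20 genes were nearest to a peak in both lists, and they were the same genes. *Fdps*, which makes farnesyl diphosphate, had a peak 6.34 kb upstream with scores of 97.3 in the vehicle and 110.65 in the cAMP list. *Msmo1*, a sterol demethylase, had a peak 13.1 kb downstream with 156.73 and 95.54, and in the cAMP list a second one 1.56 kb upstream with 70.16 and a 29-bp pair. *Sc5d*, a sterol desaturase, had 2 upstream peaks with 56.65 and 62.08 in the vehicle list and 100.01 and 52.65 in the cAMP list. Those of 56.65 and 100.01 held no Ad4 copy. *Sqle*, the squalene epoxidase, had a peak 36.0 kb upstream with 76.04 and 66.69 and no Ad4 copy.

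For cholesterol uptake, storage and export, 3 of 16 genes were nearest to a vehicle peak and 1 to a cAMP peak. *Mgarp*, the mitochondrial protein also named HUMMR, had 3 vehicle peaks, with scores of 78.73, 68.14 and 73.14, and the first of them was also in the cAMP list with 76.52. That of 73.14 held no Ad4 copy. *Plin2*, a coat protein of lipid droplets, had a vehicle peak 15.3 kb upstream with 77.89, and *Scarb1*, the receptor of high-density lipoprotein, had one 41.2 kb downstream with 53.05. The latter 2 had no cAMP peak of the class and no Ad4 copy in the vehicle peak.

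Among 20 receptors, hormones and transcription factors of the gonads, 3 genes were nearest to a peak in each list. *Nr5a1* itself had a peak 4.67 kb upstream of its TSS that was 1408 bp wide and scored 314.86 in the vehicle list. The cAMP peak there was 335 bp wide and scored 59.77, and both held 1 copy of TCAAGGCC. *Nr0b2*, which encodes the corepressor SHP, had a peak 10.0 kb downstream with 85.56 and 71.47. *Nr5a2*, the relative of *Nr5a1*, had a peak of 50.5 in the vehicle list alone, and the coactivator gene *Cited2* had a peak of 88.75 in the cAMP list alone.

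Among 19 genes of cAMP signalling, 2 were nearest to a vehicle peak and 3 to a cAMP peak. *Prkaca*, the catalytic subunit of protein kinase A, had a peak in both lists with 104.9 and 77.76. *Prkar2b*, a regulatory subunit, had peaks of 63.17 and 64.03 at separate places, and *Prkar2a* had a cAMP peak of 92.33. The vehicle peak of *Prkar2b* held no Ad4 copy. Of 16 genes of glycolysis, 3 were nearest to a vehicle peak and 1 to a cAMP peak. *Pfkl*, a phosphofructokinase, had 2 vehicle peaks with 147.52 and 122.71, and the cAMP partner of the first scored 192.99. *Hk2*, a hexokinase, and *Ldha*, a lactate dehydrogenase, had vehicle peaks of 57.01 and 52.99. Of 15 genes typical of other testis cells, *Sox9*, a Sertoli cell factor (100.75), and *Cdh5*, the endothelial cadherin (128.41), were nearest to a vehicle peak, and *Cdh5* to a cAMP peak (57.94). The peak lists hold no expression, so the purity of the cells could not be checked from them.

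The near intergenic peaks were spread over the autosomes at 1.42 to 4.28 per Mb of the class in the vehicle list, lowest on chromosome 13 and highest on chromosome 11. For cAMP the range was 1.13 to 2.83 per Mb, lowest on chromosome 18 and highest again on chromosome 11. On the X chromosome there were 12 vehicle peaks, 0.952% of the class (0.493% to 1.66%), and 8 cAMP peaks, 0.911% (0.394% to 1.79%), though X holds 7.38% of the near intergenic genome. The X peaks were thus 0.315 and 0.210 per Mb. Of all classes together, 0.594% of the vehicle and 0.571% of the cAMP peaks were on X, of which male cells have a single copy. The cause of the low share on X was not tested. No near intergenic peak was on Y.

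Genes that do not encode proteins held the centre of 167 near intergenic vehicle peaks (13.2%, 11.4% to 15.2%) and of 108 cAMP peaks (12.3%, 10.2% to 14.7%), against 11.4% of the near intergenic genome. Most of these genes were annotated as long intergenic or antisense RNAs. Between genes that diverge, 31.6% of vehicle (29% to 34.2%) and 33.1% of cAMP peaks (30% to 36.4%) were found, against 30.5% of the genome of the class, and both intervals hold that share. Another peak of the same list lay within 10 kb of 20.6% of vehicle (18.4% to 23.0%) and 14.2% of cAMP peaks (12.0% to 16.7%). The shares of all peaks were 18.3% and 12.5%, and those of remote intergenic peaks 10.8% and 5.75%.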

How the data were processed

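The authors mapped the ChIP-seq reads to mm10 with Bowtie (0.12.8 in the submitters' processing notes), kept uniquely mapped reads and called peaks with MACS. Each deposited list holds positions and the MACS score, with a lowest value of 50.00 (vehicle) and 50.01 (cAMP). The study's methods state a less strict p-value threshold than these values imply, so how the lists were cut is unclear. Whether input served as control, and the depth, are not given in the sources used here. Scores from libraries of different depth need not be comparable.

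Peak centres were classified with GENCODE M21. Overlap required 1 bp. Ad4 was searched in the RefSeq GRCm38 sequence, the assembly behind mm10, and chromosome 18 was left out of printed sequences. Background shares were tallied over every 400-bp window or 100-bp point of each class. Shares carry 95% Clopper-Pearson intervals and differences Newcombe intervals. With 1 library per condition no test was made. Python 3.11.15, numpy 2.4.6, pandas 2.3.3, scipy 1.17.1, matplotlib 3.10.9, pysam 0.24.0 and samtools 1.23.1 were used, and functions were tested on simulated data.

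Members, gene lists and alternatives were chosen with earlier results of these data known. The rule for named genes took the nearest gene of each list's 8 peaks of highest score and of its 5 without overlap, the 5 genes with most peaks, and listed genes with a peak. Some genes under this rule are not reported here. The spacing of Ad4 copies, the soft-masked bases, the X chromosome, *Star*, *Cyp11a1*, *Cyp17a1* and the genes with 29-bp or 6-bp pairs were chosen after their values were seen.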

Additional observations from a re-analysis of the deposited data

How the results depend on the processing

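Of 42 alternatives run on 10 results, 20 kept the value within the limits set (the 95% interval of a share or median, 1.5 times a count) and 22 did not. The counts of 1261 and 878 peaks became 815 and 567 with an upper limit of 20 kb, 580 and 375 with a score of at least 75, and 334 and 234 with a score of at least 100, by construction. With outermost gene 5′ ends in place of all transcript starts the upstream shares rose to 77.2% and 78.1%, and that of the genome to 74.0%, which then lay below the vehicle interval too. Counting only centres within 100 bp, 33.7% of the vehicle and 48.3% of the cAMP peaks were in both lists. With a score of at least 75 in both lists the cAMP share was 60.3%, and with at least 100 the shares were 41.6% and 59.4%. The Ad4 share of the vehicle peaks was 82.5% with 7 bases, and the shares were 72.6% and 73.2% with 9 bases, 71.2% and 72.6% in the central 200 bp, 84.5% and 89.1% at scores of at least 75, and 86.5% and 90.6% at scores of at least 100. Apart from settings that follow from their construction, the cause was not tested. No paired analysis was possible because each condition had 1 library, and no library could be left out. Depth is unknown and limits how far the lists can be set side by side.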
